A study of Saccharomyces cerevisiae with 24 samples.

Results

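The comparison is between a single high dose and a single low dose of hydrogen peroxide, each given to growing wild type budding yeast that had received no earlier dose. Acute cells received 0.4 mM for 1 h (4 arrays), and pretreated cells received 0.1 mM for 45 min (4 arrays). Both groups are BY4741, a haploid laboratory strain of mating type a, grown in rich YPD medium, and carry its deletions of HIS3, LEU2, MET17 and URA3. Each array came from a separate colony, whose culture was split into a portion given peroxide and a portion given a buffer without it. Poly(A) RNA of both portions was labelled with the 2 dyes Cy3 and Cy5 and hybridised together to a 2-colour Agilent array, with the dyes exchanged on 2 of the 4 arrays of each group. The value of an open reading frame (ORF) on an array is therefore the log2 ratio of treated over untreated intensity, and the quantity compared is the mean ratio of acute cells minus that of pretreated cells. Values on all 8 arrays were held by 6225 of the 6251 ORFs of the table, and 8 of the 24 arrays of the series entered. Of the 26 other ORFs, 17 had values on the acute arrays only, 7 on the pretreated arrays only and 2 on neither, and no ORF had values on some arrays of a group.

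The design gives 45 min for the low dose and 1 h for the high one, which was added after 45 min of further growth, whereas the methods describe both protocols as alike in all but the concentration. The length of the low dose is therefore not certain, and if it was 45 min, dose and time cannot be told apart. The low dose was chosen by the study as one that left growth unimpaired and the high one slowed growth, so the growth rate of the 2 groups differed as well, and its part in the differences below was not tested.

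Hydrogen peroxide oxidises thiol groups of proteins, and yeast removes it with peroxiredoxins, glutathione peroxidases, catalases and cytochrome c peroxidase. The thioredoxin and glutathione systems regenerate peroxiredoxins and glutathione peroxidases with electrons from NADPH, which comes largely from the pentose phosphate pathway. Oxidised Yap1, a transcription factor that accumulates in the nucleus when peroxide oxidises it, and Msn2 and Msn4, which answer to many kinds of stress, switch on most of the known response, while genes for ribosomes and growth are switched off as part of a general stress programme.

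Some properties of the arrays bear on every value. Within each group the 4 arrays shared 1 distribution of log2 ratios, with an SD of 0.946 on the acute arrays and 0.378 on the pretreated arrays and medians of -0.018 on the acute and -0.0052 to -0.00084 on the pretreated arrays. A shift common to all ORFs is thus not visible, and the highest and lowest ranks of an array take fixed values. The ceiling was 6.62 on acute arrays and 2.73 on pretreated arrays, and the floor was -4.31 and -1.88. Dye bias was large: the dye part of the ratio had an SD across ORFs of 0.37 in acute and 0.35 in pretreated cells, against a treatment part of 0.85 and 0.14, and the dye parts of the 2 groups, which share no array, correlated across the 6225 ORFs with r = 0.843. Pretreated arrays of opposite dye orientation correlated negatively over all ORFs (r = -0.75 to -0.64), and acute ones positively (r = 0.60 to 0.73). Both groups held 2 arrays of each orientation, so that a dye effect shared by the groups cancelled in the difference. The a cell genes MFA1, MFA2, STE2 and STE6 had median untreated intensities of 9202, 11930, 5483 and 2126 over the 8 arrays. They were 85.5, 65.1, 89.8 and 454 for the alpha cell genes MF(ALPHA)1, MF(ALPHA)2, STE3 and SAG1. The deleted HIS3, LEU2 and URA3 had 44.1, 78.8 and 73.4. Among the other a cell genes, BAR1 and AGA2 had 1542 and 2820, but ASG7 had 213, below the alpha cell gene SAG1. The median over all ORFs was 597 to 612 on acute arrays and 515 to 521 on pretreated arrays.

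The doses differed at most ORFs. With limma and adjustment by Benjamini-Hochberg over all 6225 ORFs, 3873 differed at an adjusted p under 0.05 (62.2%), 1899 of them higher (30.5%) and 1974 lower (31.7%) in acute than in pretreated cells. The difference was at least 1 on the log2 scale, a factor of 2 between the ratios, for 538 higher ORFs (8.64%) and 604 lower ones (9.7%). The 4 acute values all lay above the 4 pretreated values for 1082 ORFs (17.4%) and all below for 1089 (17.5%). The SD of the difference across ORFs was 0.85 around a median of -0.015, and it ranged from -3.63 to 5.85 with a median standard error of 0.10. Against their own untreated portions, 4516 ORFs passed the threshold in acute cells (72.5%) and 21 in pretreated cells (0.337%). Both counts come from the same fit, in which the acute and pretreated arrays share the error of each ORF and the dye term. The small count for the low dose therefore does not show that few ORFs responded to it. With another test and threshold, the paper reported a larger set of genes as changed on the pretreated arrays. Of the ORFs that differed, 1843 had passed the threshold as risen and 1926 as fallen against untreated cells in acute cells alone. A further 45 of the higher and 40 of the lower ones had passed the threshold in neither group on its own.

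**Figure D1:**
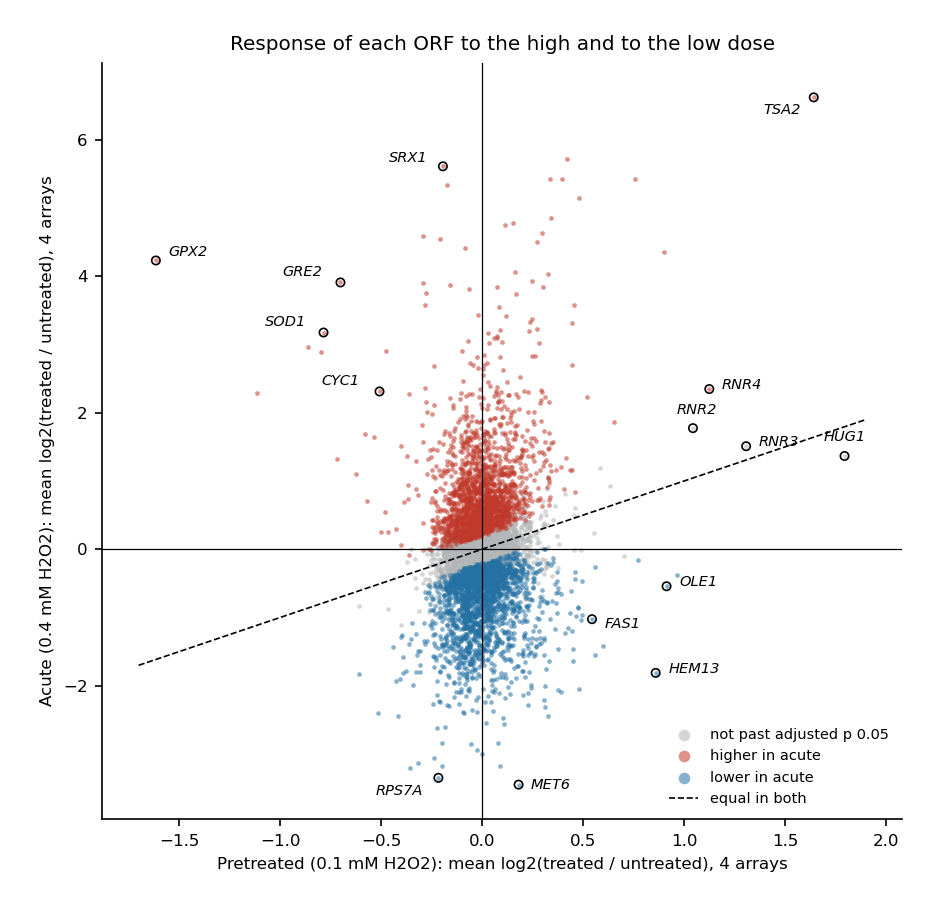
Mean log2 ratio of treated over untreated intensity in acute cells (vertical axis) against pretreated cells (horizontal axis), 1 point per ORF, coloured by the call on the difference, with the dashed line marking equal ratios. Acute means spread with an SD of 0.85 and pretreated means with an SD of 0.14 (the axes have different scales), and HUG1, RNR2 and RNR3 lie near the dashed line while GPX2 and HEM13 lie on opposite sides of both axes.

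Among ORFs with a standard name, GPX2, SRX1 and OSI1 had the highest differences. GPX2, a glutathione peroxidase, stood at 3.68, 3.43, 4.83 and 4.99 on the 4 acute arrays, against -1.32, -1.45, -1.82 and -1.88 on the 4 pretreated arrays, the last at the floor. It was raised by the high dose and lowered by the low one on every array, and the difference of 5.85 ± 0.17 (SE; adjusted p = 1.49e-07), a 57.5-fold gap between the ratios, was the highest of all ORFs as measured, with TSA2 held at the ceiling. SRX1, the sulfiredoxin that restores overoxidised peroxiredoxins, had 5.58, 5.99, 5.37 and 5.50 in acute cells, against -0.25, -0.27, -0.17 and -0.085 in pretreated cells. Its pretreated values all lay below 0, and the gap was 55.9-fold (5.80 ± 0.11, adjusted p = 2.68e-08). OSI1, an oxidoreductase-like gene named for its induction by oxidative stress, had 5.71, 5.58, 5.71 and 5.86 on acute and -0.16, -0.14, 0.91 and 1.08 on pretreated arrays (5.29 ± 0.23, adjusted p = 7.16e-07). The groups did not overlap at any of these genes.

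Among the peroxiredoxins and the thioredoxin system, 12 of 13 genes were higher in acute cells and none was lower, with a median difference of 3.69 against -0.015 over all ORFs (1.00 over the 11 members with values on all 24 arrays of the series). TSA2, a cytosolic peroxiredoxin, held the ceiling of 6.62 on all 4 acute arrays, against 0.91, 1.13, 2.10 and 2.42 on the pretreated arrays. It was the only ORF that passed the threshold as risen in both groups against untreated cells and still differed between them. Its difference of 4.98 ± 0.23 (adjusted p = 9.15e-07) rests on a rank at the ceiling, so the acute spread of 0 is no measure of its error. Its sister TSA1 had 3.21, 2.74, 2.56 and 3.06 in acute cells, against -1.23, -1.03, -0.47 and -0.45 in pretreated cells (3.69 ± 0.16, adjusted p = 7.16e-07). TSA2 was thus raised at both doses, whereas TSA1 was above 0 on every acute array and below 0 on every pretreated one. PRX1, the mitochondrial peroxiredoxin, had 4.83, 4.14, 4.54 and 4.83 on acute arrays, against -0.49, -0.74, -0.017 and 0.082 on pretreated arrays (4.87 ± 0.21, adjusted p = 7.03e-07). The 2 cytosolic thioredoxins, small proteins that pass electrons to peroxiredoxins, differed in size of response. TRX2 had 5.37, 5.16, 3.52 and 4.14 in acute cells, against -0.93, -0.59, 0.20 and 0.49 in pretreated cells, and TRX1 had 1.21, 0.82, 0.80 and 0.96 against -0.18, -0.42, 0.14 and 0.26. The difference was 4.75 ± 0.16 for TRX2 and 1.00 ± 0.12 for TRX1 (adjusted p = 2.56e-07 and 0.00015). Thioredoxin reductase TRR1 stood at 3.52, 3.19, 4.22 and 4.08 on acute and 0.39, 0.25, -0.89 and -0.85 on pretreated arrays (4.03 ± 0.11, adjusted p = 1.49e-07). The exception was MXR1, a methionine sulfoxide reductase, with -0.95, -0.90, 0.55 and 0.67 on acute arrays, against 0.31, -0.066, -0.10 and -0.15 on pretreated arrays. Its acute values split by dye orientation, and the difference of -0.16 was not past the threshold (adjusted p = 0.596, 95% interval -0.71 to 0.39, like all intervals here for the single gene).

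**Figure D2:**
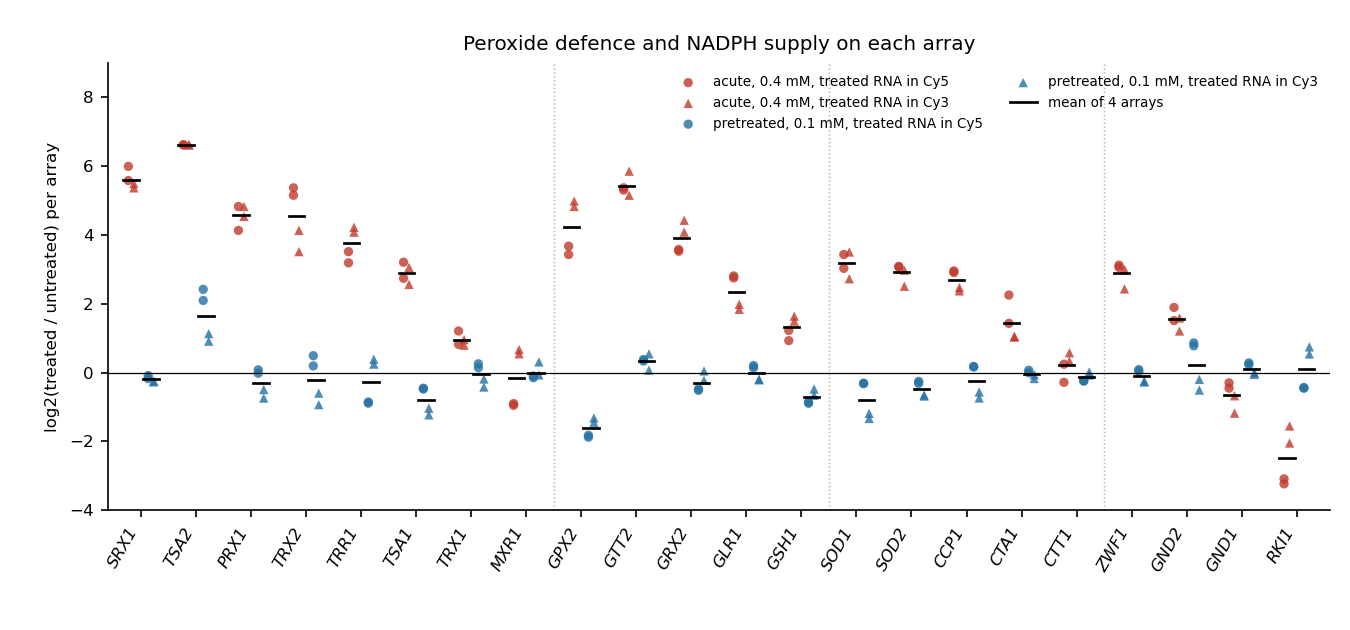
Log2 ratio of treated over untreated intensity on each array for genes of peroxiredoxins and thioredoxins, glutathione, other antioxidant enzymes and the pentose phosphate pathway (separated by dotted lines). Acute arrays are to the left of pretreated arrays at each gene, circles and triangles give the dye of the treated RNA, and bars give the means of 4 arrays; TSA2 reached 6.62 on every acute array, and the groups overlapped at MXR1 and CTT1 among the genes drawn.

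The glutathione system was higher in acute cells at 15 of 18 genes and lower at 2, with a median difference of 1.38. GTT2, a glutathione transferase, had 5.31, 5.37, 5.86 and 5.16 on acute arrays, against 0.55, 0.073, 0.34 and 0.38 on pretreated arrays (5.09 ± 0.16, adjusted p = 1.94e-07), and ECM4, an omega class glutathione transferase, had 5.50, 5.50, 4.99 and 5.71 against -0.14, -0.15, 0.91 and 0.96 (5.03 ± 0.21, adjusted p = 6.51e-07). The glutaredoxin GRX2 differed by 4.20 ± 0.11, glutathione reductase GLR1 by 2.36 ± 0.11 and GSH1, which starts glutathione synthesis, by 2.04 ± 0.10 (adjusted p = 1.42e-07, 9.33e-07 and 1.01e-06). GSH1 values were 0.93, 1.23, 1.64 and 1.50 in acute cells, against -0.47, -0.66, -0.86 and -0.89 in pretreated cells, another gene above 0 at one dose and below 0 at the other. The glutaredoxin GRX8 was lower in acute cells, at -1.01, -0.69, -0.98 and -0.76 against -0.19, -0.28, 0.28 and 0.22 (-0.87 ± 0.12, adjusted p = 0.00033).

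All 6 genes of the catalases, superoxide dismutases with their copper chaperone, and cytochrome c peroxidase were higher in acute cells, although by unequal amounts. SOD1, the cytosolic superoxide dismutase, had 3.43, 3.03, 2.73 and 3.51 on acute arrays, against -1.33, -1.18, -0.32 and -0.31 on pretreated arrays (3.96 ± 0.22, adjusted p = 2.34e-06). The mitochondrial SOD2 had 3.09, 3.07, 2.51 and 2.98 against -0.65, -0.68, -0.31 and -0.25 (3.38 ± 0.10, adjusted p = 1.68e-07), and cytochrome c peroxidase CCP1 differed by 2.92 ± 0.091 (adjusted p = 1.83e-07). The 2 catalases differed by less than these. Peroxisomal CTA1 stood at 1.43, 2.26, 1.03 and 1.06 in acute and -0.17, -0.058, 0.07 and -0.0015 in pretreated cells (1.48 ± 0.19, adjusted p = 0.000196), whereas the cytosolic CTT1 had -0.28, 0.25, 0.34 and 0.58 against -0.069, 0.021, -0.24 and -0.24 (0.35 ± 0.13, adjusted p = 0.0396). The groups overlapped at CTT1, and its call was lost in 7 of the 8 fits that left out 1 array.

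Of the 18 genes known from the literature as Yap1 targets, which include several of those above, all were higher in acute cells and all had groups that did not overlap, with a median of 3.90 and a lowest member of 1.42 (ATR1, an export pump; adjusted p = 0.00383). Over all ORFs 30.5% were higher, and 17.4% had every acute value above every pretreated value. FLR1, another export pump, had 2.67, 3.45, 1.96 and 2.11 on acute arrays, against -0.85, -0.86, 0.90 and 0.85 on pretreated arrays. Its pretreated values were below 0 on both Cy3 arrays and above 0 on both Cy5 arrays, all below the lowest acute value (2.54 ± 0.19, adjusted p = 1.16e-05). Over the wider list of drug exporters 6 of 17 genes were higher and 4 lower, with a median of -0.0068. The shares over all ORFs were 30.5% and 31.7%. Aldehyde and aryl alcohol reductases, which handle reactive carbonyl compounds, were higher at 19 of 22 genes and lower at 2. GRE2, a methylglyoxal reductase, had 4.06, 4.10, 3.68 and 3.80 in acute cells, against -0.86, -1.28, -0.36 and -0.31 in pretreated cells (4.61 ± 0.12, adjusted p = 1.42e-07). OYE3, an old yellow enzyme, differed by 4.50 ± 0.13 (adjusted p = 1.49e-07), and the putative aryl alcohol dehydrogenases AAD4 and AAD6 by 4.63 ± 0.14 and 4.23 ± 0.32 (adjusted p = 1.49e-07 and 1.11e-05). ALD6, the main cytosolic acetaldehyde dehydrogenase, was lower, at -1.58, -1.13, -2.24 and -2.25 on acute arrays against -0.52, -0.59, 0.015 and -0.14 on pretreated arrays (-1.49 ± 0.13, adjusted p = 1.99e-05).

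The pentose phosphate pathway divided. Of 15 genes 8 were higher and 5 lower, and the division ran within its enzymatic steps. ZWF1, glucose 6-phosphate dehydrogenase and the first source of NADPH in the pathway, had 3.13, 3.06, 2.43 and 3.01 in acute cells, against -0.27, -0.24, 0.09 and 0.035 in pretreated cells (3.004 ± 0.12, adjusted p = 4.92e-07). For the next step, SOL4 was higher by 2.67 ± 0.19 and its relative SOL3 lower (-1.17 ± 0.10, adjusted p = 7.58e-06 and 1.68e-05). For the step after that, GND2 stood at 1.51, 1.90, 1.21 and 1.59 on acute and -0.20, -0.51, 0.86 and 0.78 on pretreated arrays (1.32 ± 0.20), and GND1 at -0.45, -0.30, -0.67 and -1.18 against 0.0012, -0.049, 0.28 and 0.23 (-0.77 ± 0.12, adjusted p = 0.000426 and 0.000628). The transaldolase NQM1 was higher by 2.33 ± 0.14 (adjusted p = 3.16e-06). RKI1, ribose 5-phosphate isomerase, was the most lowered member, with -3.09, -3.23, -1.55 and -2.04 in acute cells, against 0.54, 0.75, -0.43 and -0.45 in pretreated cells (-2.58 ± 0.12, adjusted p = 1.14e-06).

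General stress genes, which Msn2 and Msn4 activate under heat, starvation and other stresses, were higher in acute cells at 29 of 32 genes, with a median of 2.09. HSP12, a membrane-associated small heat shock protein, had 5.16, 4.99, 5.58 and 5.99 on acute arrays, against 0.90, 0.60, 0.69 and 0.84 on pretreated arrays (4.67 ± 0.17, adjusted p = 3.5e-07). All 8 values were above 0.5, and the lowest acute value was 4.99. DDR2, a multistress gene, had 5.86, 5.86, 3.73 and 3.99 against -0.034, -0.63, 0.91 and 1.12 (4.52 ± 0.17, adjusted p = 4.3e-07), with higher acute ratios on the Cy5 arrays. PNC1, a nicotinamidase, differed by 3.77 ± 0.15, and YGP1, a secreted glycoprotein made under starvation, by 2.13 ± 0.14 (adjusted p = 5.43e-07 and 5.04e-06). The single lower member was RPI1, a transcriptional regulator, with -0.52, -0.49, -1.04 and -1.11 against 0.18, 0.018, 0.26 and 0.24 (-0.96 ± 0.10, adjusted p = 6e-05).

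Chaperones of the heat shock response were higher at 24 of 26 genes and lower at none (median 1.27). The small heat shock protein HSP42 had 3.61, 4.54, 3.94 and 3.61 in acute cells, against 0.083, -0.16, 0.48 and 0.59 in pretreated cells (3.68 ± 0.19, adjusted p = 1.74e-06). HSP26, of the same class, differed by 3.12 ± 0.16 and the inducible Hsp70 gene SSA4 by 3.47 ± 0.27 (adjusted p = 1.31e-06 and 1.22e-05). HSC82, the constitutive Hsp90, had 0.37, 0.53, 0.95 and 1.00 on acute arrays, against -0.42, -0.62, -0.60 and -0.63 on pretreated arrays (1.28 ± 0.11, adjusted p = 1.98e-05), with the groups on opposite sides of 0. Trehalose and glycogen metabolism was higher at 16 of 20 genes and lower at 2 (median 1.03). TSL1 and TPS1, subunits of trehalose synthase, differed by 2.85 ± 0.12 and 2.31 ± 0.12, and the glycogen branching enzyme GLC3 by 2.32 ± 0.092 (adjusted p = 5.95e-07, 1.48e-06 and 4.92e-07). Of the phosphoglucomutases, which feed both stores, PGM2 had 1.85, 1.81, 2.27 and 2.81 in acute cells, against 0.33, 0.33, -0.13 and -0.20 in pretreated cells (2.10 ± 0.12, adjusted p = 2.68e-06), and PGM1 had -0.22, -0.16, -0.52 and -0.60 against -0.21, -0.0008, 0.10 and 0.13 (-0.38 ± 0.081, adjusted p = 0.00322).

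Genes of protein breakdown were higher together. All 35 proteasome genes were higher in acute cells, by a median of 1.60 and within a narrow range of 0.60 to 2.21, and the groups did not overlap for 28 of them. Over all ORFs 30.5% were higher, and 17.4% had every acute value above every pretreated value. The list's median ratio was between 0.97 and 1.88 on the acute arrays and between -0.13 and -0.011 on the pretreated arrays. PRE8, a subunit of the core, had 2.52, 2.43, 1.34 and 1.98 on acute arrays, against -0.49, -0.64, 0.32 and 0.24 on pretreated arrays (2.21 ± 0.13, adjusted p = 3.42e-06). RPN8, a subunit of the regulatory lid, had 0.97, 0.54, 2.43 and 3.02 against 0.49, 0.26, -0.74 and -0.73 (1.92 ± 0.21, adjusted p = 7.15e-05), with its higher acute values on the Cy3 arrays. In the ubiquitin system 18 of 21 genes were higher and none lower. Polyubiquitin UBI4 had 3.45, 2.85, 3.02 and 3.54 in acute cells, against 0.73, -0.025, -0.21 and -0.15 in pretreated cells (3.13 ± 0.21, adjusted p = 6.35e-06), and the proteasome-bound deubiquitinase UBP6 differed by 2.35 ± 0.15 (adjusted p = 5.43e-06). Among vacuolar proteases and autophagy genes 22 of 25 were higher and none lower. APE1, an aminopeptidase delivered by the autophagy machinery, had 4.29, 4.08, 3.80 and 4.10 against 0.026, -0.014, 0.29 and 0.36 (3.90 ± 0.092, adjusted p = 1.08e-07). ATG8, the protein that coats the forming autophagosome, had 3.16, 3.02, 3.10 and 3.09 against -0.068, -0.23, 0.32 and 0.27 (3.02 ± 0.11, adjusted p = 3.1e-07), and the proteinases PEP4 and PRB1 differed by 2.12 ± 0.14 and 1.78 ± 0.089 (adjusted p = 5.49e-06 and 1.35e-06).

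**Figure D3:**
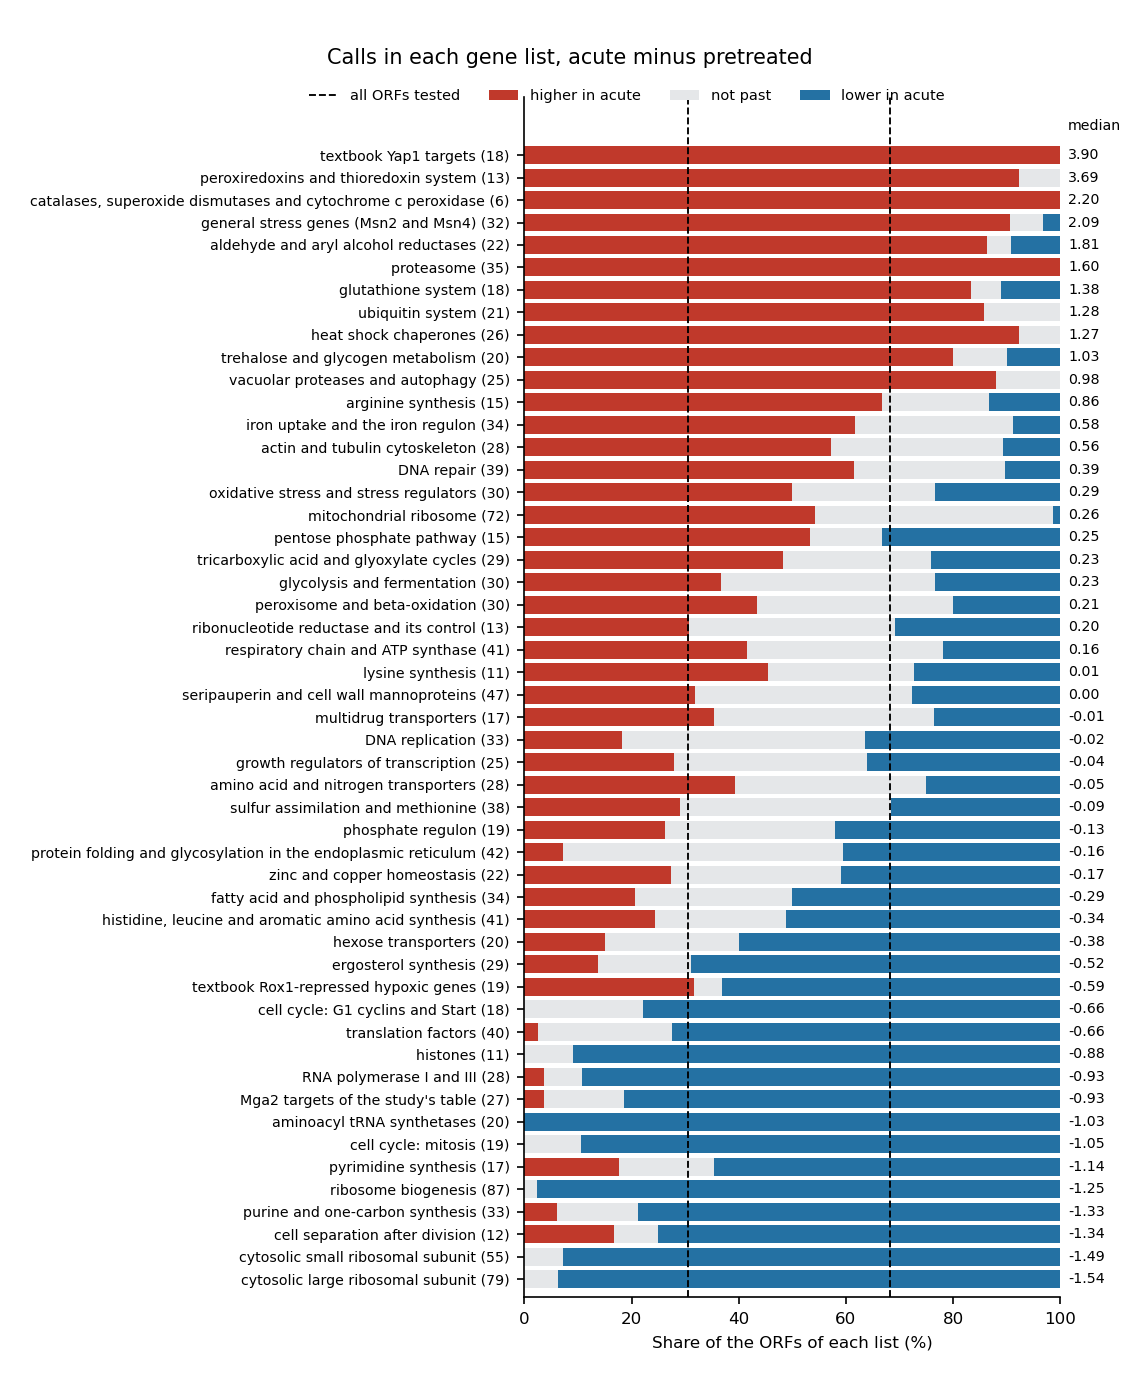
Share of the tested ORFs of each gene list (number in brackets) that were higher, not past adjusted p 0.05 or lower in acute than in pretreated cells, ordered by the median log2 difference printed at the right. Dashed lines mark the shares over all 6225 ORFs, 30.5% higher from the left and 31.7% lower from the right; the proteasome list is higher throughout, and the aminoacyl tRNA synthetase list is lower throughout.

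Ribonucleotide reductase, which makes the building blocks of DNA, and its control genes were higher at 4 of 13, lower at 4 and not past the threshold at 5, close to the shares over all ORFs (30.5% higher and 31.7% lower). HUG1, a small inhibitor of the enzyme induced by DNA damage, had 1.85, 0.76, 1.16 and 1.69 on acute arrays, against 1.66, 0.05, 2.73 and 2.73 on pretreated arrays, the last 2 at the pretreated ceiling. All 8 values were above 0, and the difference of -0.43 had a 95% interval of -1.55 to 0.69 (adjusted p = 0.475). RNR3, the damage-induced large subunit, had 1.74, 1.40, 0.99 and 1.91 in acute cells, against 0.61, 0.10, 2.42 and 2.10 in pretreated cells, with a difference of 0.20 and an interval of -0.64 to 1.05 (adjusted p = 0.66). The small subunit RNR2 had 1.73, 1.59, 1.73 and 2.05 against 0.73, 0.056, 1.66 and 1.73 (0.73 ± 0.30, interval 0.043 to 1.42, adjusted p = 0.0619), and the main large subunit RNR1 had 0.72, -0.082, 0.41 and 1.25 against 0.017, -0.23, 0.27 and 0.30 (0.49 ± 0.26, interval -0.12 to 1.09, adjusted p = 0.141). RNR4, the other small subunit, was higher in acute cells, at 1.68, 0.61, 4.18 and 2.92 against 2.42, 1.30, 0.35 and 0.43 (1.22 ± 0.38, adjusted p = 0.0221). The groups overlapped at each of these 5 genes, and the RNR4 call was lost without acute replicate 1, acute replicate 3 or pretreated replicate 2 (adjusted p = 0.0681, 0.0509 and 0.0612), while HUG1 passed as lower without pretreated replicate 2 (-0.95, adjusted p = 0.0445). RNR2 passed as higher without acute replicate 2 or pretreated replicate 4 (0.91 and 0.90, adjusted p = 0.0379 and 0.0421), and RNR1 without acute replicate 2 (0.74, adjusted p = 0.0187). The checkpoint kinase DUN1 was higher by 0.50 ± 0.12, and DIF1, which carries the small subunits into the nucleus, was lower (-1.06 ± 0.11; adjusted p = 0.00699 and 5.69e-05).

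DNA repair genes were higher at 24 of 39 and lower at 4 (median 0.39). The neighbouring and divergently transcribed DDI1, a ubiquitin-binding protease-like protein, and MAG1, a DNA glycosylase, were both higher. DDI1 had 2.67, 2.64, 1.49 and 2.20 on acute arrays, against -0.63, -0.77, 0.53 and 0.54 on pretreated arrays (2.33 ± 0.16, adjusted p = 6.78e-06), and MAG1 had 2.51, 2.27, 1.42 and 2.64 against -0.52, -0.70, 0.55 and 0.68 (2.21 ± 0.27, adjusted p = 0.000141). REV1, a translesion polymerase, was lower (-0.83 ± 0.075, adjusted p = 2.72e-05). Of DNA replication genes 6 of 33 were higher and 12 lower, against 30.5% and 31.7% over all ORFs. RFA1 and RFA2, subunits of the single-strand binding protein, were higher by 1.49 ± 0.15 and 1.68 ± 0.18, and the replicative helicase subunit MCM7 was lower at -1.20 ± 0.10 (adjusted p = 4.56e-05, 6.51e-05 and 2.12e-05).

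Only 21 ORFs passed the threshold against untreated cells in pretreated cells (0.337%), in a fit whose error was shared with the acute arrays. This limits any count of ORFs past the threshold in both groups. Most of these 21 had moved the opposite way in acute cells. Past the threshold in both groups against untreated cells, 8 ORFs had fallen in acute cells and risen in pretreated cells, and 9 had done the reverse, among them GPX2, GRE2, TSA1, SOD2, GSH1, HSC82 and CYC1. The first set was led by HEM13, an oxygen-dependent enzyme of haem synthesis that hypoxia induces, with -1.49, -1.46, -1.999 and -2.30 on acute arrays, against 0.79, 0.58, 1.06 and 1.01 on pretreated arrays (-2.67 ± 0.11, adjusted p = 5.03e-07, a 6.37-fold gap). OLE1, the fatty acid desaturase that Mga2 controls, had -0.99, -1.46, -0.036 and 0.32 in acute cells, against 1.13, 1.15, 0.73 and 0.65 in pretreated cells (-1.46 ± 0.20, adjusted p = 0.000258). Its acute values were below 0 on the Cy5 arrays and near 0 on the Cy3 arrays, all below the pretreated ones. FAA4, an acyl-CoA synthetase, differed by -1.32 ± 0.10, the phospholipase PLB2 by -2.02 ± 0.11 and IZH2, a membrane protein of zinc and sterol metabolism, by -0.79 ± 0.088 (adjusted p = 1.44e-05, 1.85e-06 and 7.79e-05). TDA4, a protein of unassigned function, had -0.19, -0.077, -1.99 and -1.90 against -0.43, -0.33, 1.42 and 1.30 (-1.53 ± 0.076, adjusted p = 1.31e-06), overlapping groups in which each value depended on the dye. CYC1, the main cytochrome c, went the other way, with 2.23, 2.58, 2.20 and 2.25 in acute cells, against -0.52, -0.80, -0.31 and -0.40 in pretreated cells (2.82 ± 0.10, adjusted p = 3.5e-07).

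**Figure D4:**
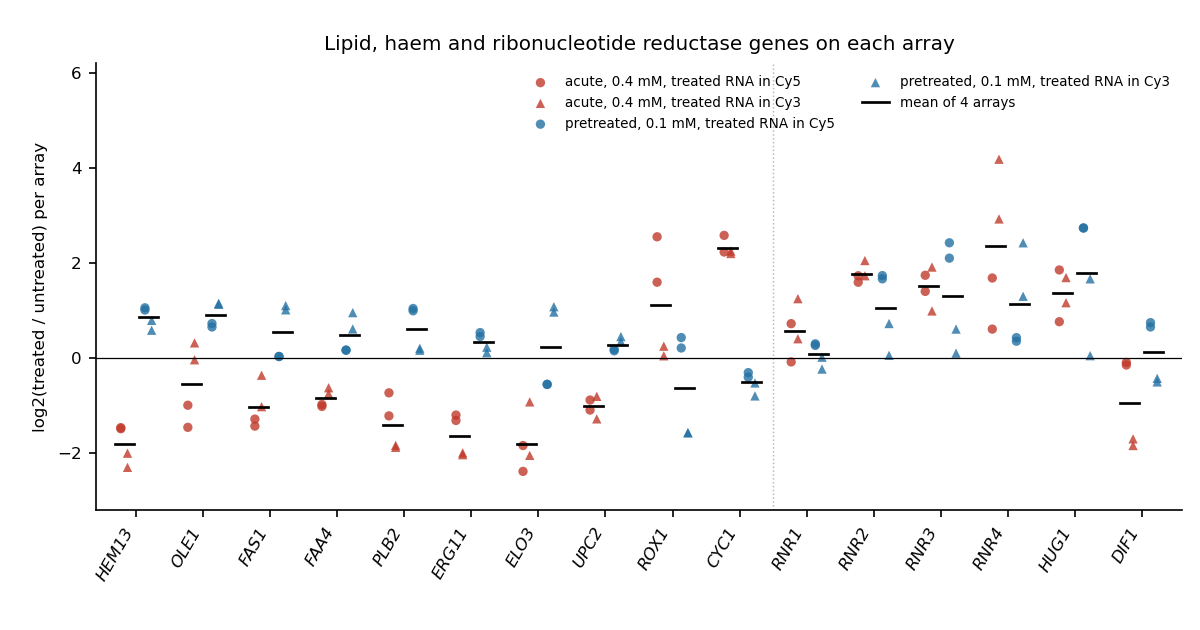
Log2 ratio of treated over untreated intensity on each array for lipid and haem genes with ROX1 and CYC1 (left of the dotted line) and for ribonucleotide reductase genes with HUG1 and DIF1 (right), acute arrays to the left of pretreated arrays at each gene. HEM13 lies between -2.30 and -1.46 on acute arrays and between 0.58 and 1.06 on pretreated arrays, whereas the groups overlap at RNR1, RNR2, RNR3, RNR4 and HUG1.

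Other lipid synthesis genes were more often lower than higher after the high dose. Fatty acid and phospholipid genes were lower at 17 of 34 and higher at 7, and ergosterol genes lower at 20 of 29 and higher at 4. The shares over all ORFs were 31.7% lower and 30.5% higher. FAS1, a fatty acid synthase subunit, had -1.28, -1.43, -0.36 and -1.02 on acute arrays, against 1.01, 1.10, 0.03 and 0.035 on pretreated arrays (-1.57 ± 0.15, adjusted p = 3.38e-05), with no overlap. ELO3, an elongase for very long fatty acids, had -2.38, -1.84, -0.92 and -2.05 against 1.08, 0.97, -0.56 and -0.55 (-2.03 ± 0.28, adjusted p = 0.000266), and the ceramide synthase subunit LAC1 differed by -2.15 ± 0.17 (adjusted p = 1.24e-05). ERG11, the oxygen-dependent sterol demethylase, had -1.20, -1.31, -2.03 and -1.99 in acute cells, against 0.23, 0.11, 0.45 and 0.53 in pretreated cells (-1.97 ± 0.10, adjusted p = 1.85e-06). The squalene epoxidase ERG1 was lower (-1.70 ± 0.10), and ERG9, squalene synthase, was higher (0.97 ± 0.19, adjusted p = 2.82e-06 and 0.00195). The study's table of Mga2 targets, drawn from the literature, lists 27 genes. Mga2 was singled out by the study in part through the response of these genes on the pretreated arrays, so that their direction is no independent evidence. The study's other evidence on Mga2 was a deletion fitness screen, growth of the mga2 deletion strain and arrays of that strain. Of the 27, 22 were lower in acute cells, 1 higher and 4 not past the threshold (median -0.93). The higher one was YPC1, a ceramidase (0.61 ± 0.11, adjusted p = 0.00136). Of 19 hypoxic genes that the repressor Rox1 is known to control, 12 were lower and 6 higher. The sterol regulator UPC2 and the cell wall mannoprotein DAN1 were lower (-1.30 ± 0.12 and -2.03 ± 0.25, adjusted p = 3.38e-05 and 0.000126), and ROX1 itself was higher, with 1.59, 2.55, 0.25 and 0.047 on acute arrays, against -1.57, -1.57, 0.43 and 0.21 on pretreated arrays (1.73 ± 0.18, adjusted p = 6.15e-05), a gene whose groups overlapped and whose high acute values were on the Cy5 arrays.

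The cytosolic ribosome and its assembly were lower after the high dose. Of large subunit genes 74 of 79 were lower and none higher (median -1.54), of small subunit genes 51 of 55 and none (median -1.49), and of biogenesis factors 85 of 87 and none (median -1.25). The median of the large subunit was between -1.76 and -1.06 on the acute arrays and between -0.17 and 0.22 on the pretreated arrays. RPS7A had -3.70, -4.31, -2.84 and -2.56 in acute cells, with the second value at the floor, against 0.23, 0.13, -0.67 and -0.55 in pretreated cells (-3.13 ± 0.16, adjusted p = 1.64e-06). RPL7A and RPL7B differed by -2.52 ± 0.37 and -2.49 ± 0.32 (adjusted p = 0.000398 and 0.000177). Such duplicated ribosomal genes are nearly identical in sequence, so their probes may report a sum of both copies. DBP2, an RNA helicase, had -3.45, -2.95, -2.86 and -3.45 against 0.49, 0.41, -0.20 and -0.35 (-3.27 ± 0.19, adjusted p = 2.96e-06), and the nucleolar protein SRP40 differed by -2.19 ± 0.13 (adjusted p = 2.86e-06).

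The supply of ribosomal RNA and of translation moved with them. Subunits of RNA polymerases I and III, which transcribe ribosomal and transfer RNA, were lower at 25 of 28 genes. RPA190, the largest subunit of polymerase I, had -2.93, -2.91, -0.51 and -1.68 on acute arrays, against 0.99, 1.02, -0.43 and -0.33 on pretreated arrays (-2.32 ± 0.22, adjusted p = 3.86e-05), and RPA135, the next largest, differed by -2.29 ± 0.20 (adjusted p = 2.33e-05). The single higher gene was MAF1, the repressor of polymerase III (0.33 ± 0.076, adjusted p = 0.00506). Translation factors were lower at 29 of 40 genes and higher at 1, among them the initiation factor TIF4631 (-1.42 ± 0.11) and the ribosome-associated STM1 (-1.59 ± 0.17, adjusted p = 1.31e-05 and 7.13e-05). All 20 cytosolic aminoacyl tRNA synthetase genes were lower (median -1.03). CDC60, which charges leucine tRNA, had -2.86, -2.20, 0.98 and -0.55 in acute cells, against 1.63, 2.73, -1.34 and -1.33 in pretreated cells (-1.58 ± 0.37, adjusted p = 0.00556), overlapping groups with a strong dependence on dye. The mitochondrial ribosome went otherwise: 39 of 72 genes were higher and 1 lower, with a median of 0.26. Only MRP8, whose place in that ribosome is uncertain, exceeded 1 (2.42 ± 0.078, adjusted p = 1.94e-07), and the lower one was MRPL39 (-0.37 ± 0.08, adjusted p = 0.00373).

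Purine and one-carbon synthesis, which supplies nucleotides for RNA and DNA, was lower in acute cells at 26 of 33 genes and higher at 2 (median -1.33). The difference depended on the dye orientation at 13 of the 33 (39.4%), against 61 of all 6225 ORFs (0.98%). SHM2, the cytosolic serine hydroxymethyltransferase, had -2.91, -2.21, -3.70 and -3.92 on acute arrays, against 0.078, 0.60, -0.73 and -0.74 on pretreated arrays (-2.98 ± 0.43, adjusted p = 0.000375). HPT1 and AAH1, of purine salvage, differed by -2.82 ± 0.10 and -2.67 ± 0.23 (adjusted p = 3.57e-07 and 2.17e-05). Of the 2 isozymes for the last steps of purine synthesis, ADE17 had -2.39, -1.82, -4.31 and -4.31 against -0.39, -0.37, -0.40 and -0.27 (-2.85 ± 0.39), with the Cy3 acute arrays at the floor, and ADE16 had -0.20, 0.092, 1.49 and 0.93 against 0.89, 0.84, -0.65 and -0.59 (0.46 ± 0.13, adjusted p = 0.000266 and 0.0155). The ADE16 groups overlapped. Pyrimidine synthesis was lower at 11 of 17 genes and higher at 3. URA1, dihydroorotate dehydrogenase, had -3.24, -2.81, -2.70 and -3.01 in acute cells, against 0.44, 0.45, -0.37 and -0.61 in pretreated cells (-2.92 ± 0.18, adjusted p = 3.58e-06), and the CTP synthase URA7 differed by -2.50 ± 0.21 (adjusted p = 2.05e-05). The other CTP synthase, URA8, and the minor orotate phosphoribosyltransferase URA10 were higher (1.22 ± 0.073 and 1.37 ± 0.11, adjusted p = 3.42e-06 and 1.48e-05).

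Amino acid metabolism was mixed. The lowest difference of all belonged to MET6, methionine synthase, with -4.31, -2.97, -3.21 and -3.30 on acute arrays, the first at the floor, against 0.48, 0.20, -0.0036 and 0.057 on pretreated arrays (-3.63 ± 0.24, adjusted p = 6.11e-06, a 12.4-fold gap). SAM1, an S-adenosylmethionine synthetase, differed by -2.80 ± 0.13, yet sulfur assimilation and methionine genes as a list were lower at 12 and higher at 11 of 38, with STR2, a cystathionine synthase, higher by 1.26 ± 0.12 (adjusted p = 9.33e-07 and 4.17e-05). Both counts of that list were near the shares over all ORFs (31.7% lower and 30.5% higher). Histidine, leucine and aromatic synthesis was lower at 21 of 41 genes and higher at 10, the lower ones including LEU1 (-2.43 ± 0.20), ILV3 (-1.95 ± 0.10) and HIS4 (-1.47 ± 0.27, adjusted p = 1.87e-05, 1.31e-06 and 0.00139). BAT2, the cytosolic branched-chain transaminase, was higher (1.31 ± 0.17, adjusted p = 0.000167). Arginine synthesis and nitrogen assimilation were higher at 10 of 15 genes and lower at 2, with ARG3 at 1.66, 1.01, 2.58 and 3.29 in acute cells, against 0.082, -0.38, 0.14 and 0.13 in pretreated cells (2.14 ± 0.38) and ARG4 at 1.86 ± 0.14 (adjusted p = 0.00116 and 1.24e-05). In the same list glutamine synthetase GLN1 was higher (2.17 ± 0.25) and glutamate synthase GLT1 lower (-1.97 ± 0.12, adjusted p = 0.000104 and 3.56e-06). In lysine synthesis LYS20 was higher and LYS4 lower (1.63 ± 0.19 and -1.77 ± 0.20, adjusted p = 0.000106 and 9.9e-05). The general amino acid permease GAP1 had 3.54, 2.31, 4.06 and 3.73 on acute arrays, against 0.13, 0.26, 0.04 and 0.039 on pretreated arrays (3.29 ± 0.27, adjusted p = 1.6e-05). AGP1, another permease, differed by 2.21 ± 0.21, and the glutathione and oligopeptide transporter OPT1 by -1.29 ± 0.14 (adjusted p = 3.66e-05 and 6.17e-05). Over all amino acid and nitrogen transporters 11 of 28 were higher and 7 lower, against 30.5% and 31.7% over all ORFs.

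Genes of the cell cycle were lower or not past the threshold. Of G1 cyclin and Start genes 14 of 18 were lower and none higher, of mitosis genes 17 of 19 and none, and of histone genes 10 of 11 and none. The G1 cyclin CLN2 had -2.32, -1.98, -1.88 and -2.22 in acute cells, against 0.22, 0.16, -0.32 and -0.47 in pretreated cells (-1.99 ± 0.14, adjusted p = 7.03e-06), and CLN1 and the repressor YOX1 differed by -1.41 ± 0.15 and -2.03 ± 0.14 (adjusted p = 5.39e-05 and 5.92e-06). SWI5, which activates genes at the end of mitosis, had -2.03, -1.50, -2.13 and -1.81 against 0.18, 0.32, -0.40 and -0.42 (-1.79 ± 0.19, adjusted p = 7.11e-05), and HOF1, of the bud neck ring, differed by -1.83 ± 0.19 (adjusted p = 5.06e-05). HO, the mating type endonuclease transcribed in late G1, had -3.21, -3.09, -3.04 and -3.17 on acute arrays, against 0.01, 0.26, -0.74 and -0.80 on pretreated arrays (-2.81 ± 0.17, adjusted p = 3.58e-06). Histone HTA2 had -3.92, -2.68, -2.37 and -3.04 against 1.12, 0.87, -1.13 and -0.85 (-3.00 ± 0.35, adjusted p = 0.000109), HTB2 and HTA1 differed by -2.64 ± 0.22 and -2.29 ± 0.27 (adjusted p = 1.85e-05 and 0.000106), and the linker histone HHO1 had a difference of -0.17 (adjusted p = 0.129, interval -0.36 to 0.032). Poly(A) selection and near-identical copies limit what a histone probe reports. Cell separation genes were lower at 9 of 12, among them EGT2 (-1.89 ± 0.19) and DSE4 (-1.64 ± 0.16), and the chitinase CTS1 was higher (0.76 ± 0.14, adjusted p = 4.25e-05, 4.63e-05 and 0.00177).

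Transport of metals, phosphate and sugar showed members moving both ways. Iron uptake genes were higher at 21 of 34 and lower at 3. The haem oxygenase HMX1 had 2.17, 2.62, 2.70 and 3.10 in acute cells, against 0.054, 0.034, -0.038 and -0.02 in pretreated cells (2.64 ± 0.14, adjusted p = 2.09e-06). The iron-sulfur scaffold ISU2 and the ferric reductase FRE1 differed by 2.63 ± 0.28 and 2.39 ± 0.41 (adjusted p = 5.84e-05 and 0.000975). FET4, the low-affinity iron transporter, was lower, with -2.85, -1.55, -2.14 and -2.70 on acute arrays, against 0.75, 1.11, -0.28 and -0.34 on pretreated arrays (-2.62 ± 0.36, adjusted p = 0.000273). The 2 metallothionein copies CUP1-1 and CUP1-2, which probes may not tell apart, differed by 2.26 ± 0.29 and 2.18 ± 0.29 (adjusted p = 0.000194 and 0.000242), while the zinc transporter ZRT1 and the membrane protein IZH1 were lower (-1.32 ± 0.11 and -1.45 ± 0.22, adjusted p = 2.21e-05 and 0.000468). In the hand-made list named for the phosphate regulon, the acid phosphatase PHO3 had -2.05, -2.24, -2.71 and -2.74 against 0.19, 0.25, 0.48 and 0.40 (-2.77 ± 0.10, adjusted p = 3.06e-07) and the transporter PHO89 differed by -2.14 ± 0.40, whereas the transporter PHO84 and the nucleotidase PHM8 were higher (0.82 ± 0.23 and 2.59 ± 0.19, adjusted p = 0.00164, 0.0128 and 9.85e-06). Hexose transporters and their regulators were lower at 12 of 20 and higher at 3. HXT1, HXT2 and HXT3 differed by -2.23 ± 0.11, -2.40 ± 0.15 and -2.13 ± 0.10, and HXT5, the transporter of slow growth and starvation, was higher (0.52 ± 0.14, adjusted p = 1.47e-06, 4.97e-06, 7.92e-07 and 0.00909).

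Energy metabolism shifted gene by gene. Of glycolysis and fermentation genes 11 of 30 were higher and 7 lower, near the shares over all ORFs, and of the tricarboxylic acid and glyoxylate cycles 14 of 29 and 7. Glucokinase GLK1 had 3.73, 3.52, 2.86 and 2.82 on acute arrays, against 0.46, 0.014, 0.21 and 0.40 on pretreated arrays (2.96 ± 0.17, adjusted p = 2.51e-06). TDH1, a glyceraldehyde 3-phosphate dehydrogenase, was higher (1.71 ± 0.15) and the pyruvate decarboxylase PDC1 and the glycerol phosphatase GPP1 lower (-1.23 ± 0.17 and -1.49 ± 0.11, adjusted p = 2.64e-05, 0.00029 and 9.08e-06). The mitochondrial isocitrate dehydrogenase subunit IDH2 was higher (2.07 ± 0.15), and the malic enzyme MAE1 was the most lowered of the list, with -2.12, -1.64, -3.92 and -3.70 in acute cells, against -1.02, -0.66, 1.03 and 0.97 in pretreated cells (-2.92 ± 0.13, adjusted p = 8.77e-06 and 7.37e-07). Its ratios differed strongly between orientations in both groups, yet the groups did not overlap. Of respiratory chain and ATP synthase genes 17 of 41 were higher, CYC1 above all and ATP2 at 0.93 ± 0.093, and 9 lower (adjusted p = 4.76e-05 for ATP2). Peroxisomal genes were higher at 13 of 30, lower at 6 and not past the threshold at 11 (median 0.21), with carnitine acetyltransferase CAT2 at 0.97 ± 0.12 (adjusted p = 0.000117). For all the lists of this paragraph, the shares over all ORFs were 30.5% higher and 31.7% lower.

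Isozyme pairs were set side by side. Of 42 pairs of related genes, both members were past the threshold in opposite directions for 8, both higher for 14 and both lower for 4. Over all ORFs 30.5% were higher and 31.7% lower. The share of such calls among unrelated pairs was not taken, so these counts are not a result about isozymes. In the opposite pairs, PGM2, SOL4, GND2, ADE16 and TKL2 were the higher members and PGM1, SOL3, GND1, ADE17 and TKL1 the lower. The transketolases TKL2 and TKL1 differed by 0.25 ± 0.081 and -0.94 ± 0.09 (adjusted p = 0.0239 and 3.62e-05), and the TKL2 call was lost without acute replicate 2, pretreated replicate 2 or pretreated replicate 3 (adjusted p = 0.0508, 0.0761 and 0.0663). So were GPD1 (0.98 ± 0.10) against GPD2 (-0.99 ± 0.08), glycerol 3-phosphate dehydrogenases (adjusted p = 6.17e-05 and 1.5e-05), and the mitochondrial malate dehydrogenase MDH1 (1.54 ± 0.10) against the cytosolic MDH2 (-1.77 ± 0.23, adjusted p = 6.37e-06 and 0.000178). MDH2 stood at -0.96, -0.66, -2.33 and -2.58 on acute and -0.16, -0.025, 0.46 and 0.29 on pretreated arrays. The last pair was of sterol acyltransferases, with ARE2 higher by 1.37 ± 0.30 and ARE1 at -0.48 ± 0.073 (adjusted p = 0.00372 and 0.000468). The pairs were listed by hand from known paralogs and isozymes, with results of these arrays already known.

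**Figure D5:**
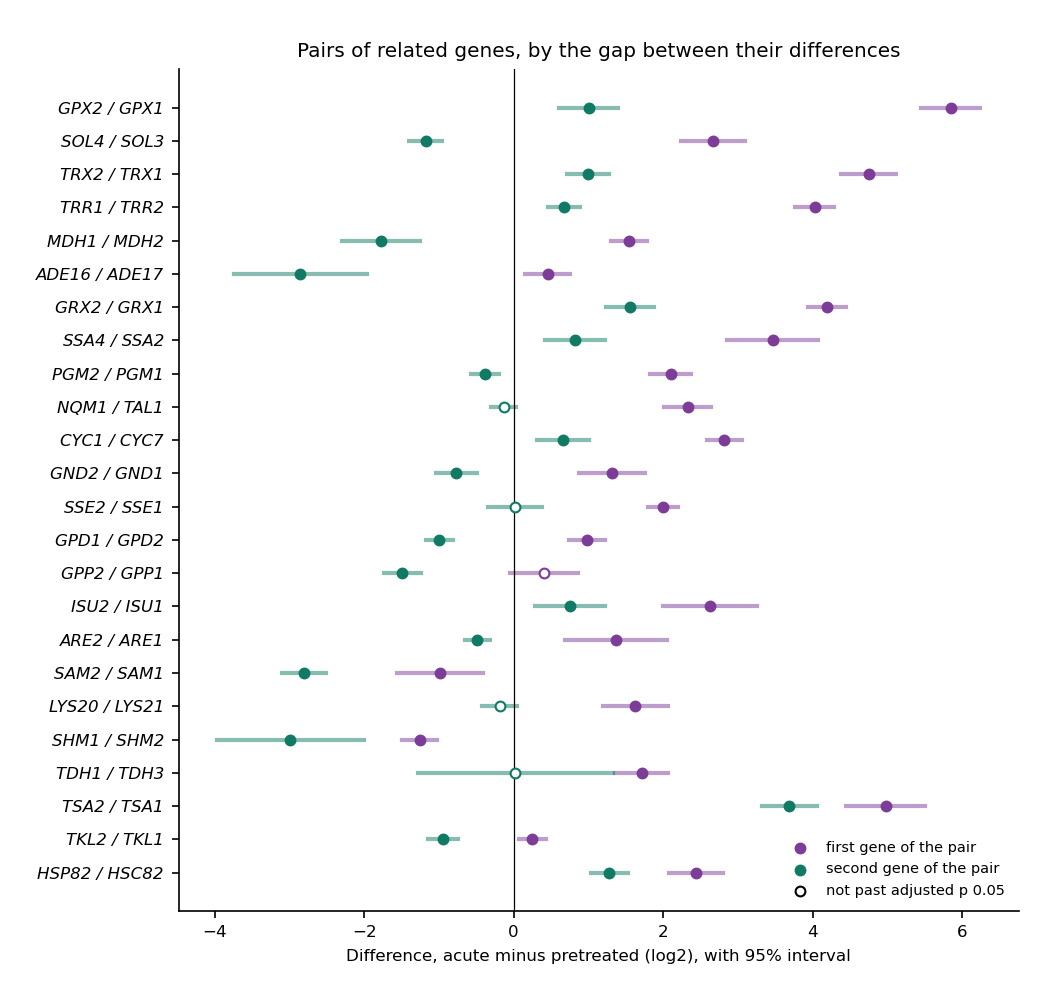
Log2 difference, acute minus pretreated, for the 24 pairs of related genes with the widest gap between members, with 95% intervals for the single gene and open symbols for members not past adjusted p 0.05. SOL4 (2.67) and SOL3 (-1.17) lie on opposite sides of 0, while TSA2 (4.98) and TSA1 (3.69) are both higher in acute cells.

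Among regulators of stress responses 15 of 30 genes were higher and 7 lower, against 30.5% and 31.7% over all ORFs. YAP1 itself had 2.28, 2.32, 2.06 and 2.20 in acute cells, against -0.24, -0.42, 0.026 and -0.0066 in pretreated cells (2.37 ± 0.082, adjusted p = 2.83e-07), and CIN5, of the same family, differed by 1.50 ± 0.18 (adjusted p = 0.000123). MSN2 and MSN4 were higher by less, 0.47 ± 0.077 and 0.42 ± 0.088 (adjusted p = 0.000749 and 0.00307). SKN7, the partner of Yap1 at peroxidase genes, was lower, with -0.19, -0.43, -0.75 and -0.89 on acute arrays, against -0.31, -0.44, 0.63 and 0.56 on pretreated arrays (-0.67 ± 0.12, adjusted p = 0.000967), and MGA2 had -0.71, -0.95, 0.40 and 0.43 against 0.72, 1.00, -0.45 and -0.44 (-0.42 ± 0.092, adjusted p = 0.00384). The pretreated values of SKN7 and the values of MGA2 in both groups changed sign with the dye, and the groups overlapped at both genes. The haem-responsive HAP1 was lower (-0.84 ± 0.13, adjusted p = 0.000641). Of regulators of growth, 7 of 25 were higher, among them the nitrogen regulator GAT1 (1.22 ± 0.14), and 9 lower, among them RAP1 (-1.13 ± 0.11), which binds ribosomal protein promoters, and TOD6 (-1.17 ± 0.16), a repressor of biogenesis genes (adjusted p = 9.41e-05, 4.89e-05 and 0.000252). Both counts of growth regulators were near the shares over all ORFs (30.5% higher and 31.7% lower).

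Cytoskeleton genes were higher at 16 of 28 and lower at 3. ACT1, actin, often used as a reference gene, had 0.74, 0.66, 0.92 and 1.08 in acute cells, against -0.0038, 0.13, -0.062 and -0.10 in pretreated cells (0.86 ± 0.081, adjusted p = 3.37e-05). ARP2 and ARP3, which nucleate branched actin, differed by 1.22 ± 0.083 and 1.10 ± 0.074 (adjusted p = 6.34e-06 and 5.92e-06). In the endoplasmic reticulum list 17 of 42 genes were lower and 3 higher, against 31.7% and 30.5% over all ORFs. ERO1 and PDI1, which form disulfide bonds, were higher (1.23 ± 0.12 and 1.01 ± 0.15), and the mannosyltransferase PMT4 was lower (-1.31 ± 0.11, adjusted p = 3.35e-05, 0.000393 and 2.2e-05). Cell wall mannoproteins were higher at 15 of 47 and lower at 13, near the shares over all ORFs (30.5% and 31.7%). The glucanosyltransferase GAS3 had the lowest difference of that list (-2.31 ± 0.16, adjusted p = 8.31e-06). Among a and alpha cell specific genes 3 of 12 passed the threshold, none of the 3 deleted markers with values did, and none of 7 subtelomeric YRF1 helicase copies did. The share over all ORFs was 62.2%.

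ORFs without a standard name, 1005 of the 6225, were 18 of the 100 ORFs with the highest differences and 1 of the 100 with the lowest. The highest of them, singled out after its values were seen, was YNL134C, with 5.99, 5.71, 4.36 and 5.31 on acute arrays, against -0.82, -1.03, 0.56 and 0.60 on pretreated arrays (5.51 ± 0.20, adjusted p = 3.5e-07), below GPX2 and SRX1 only. YMR090W had 4.99, 4.73, 5.31 and 5.58 against 0.42, 0.14, 0.54 and 0.82 (4.67 ± 0.20, adjusted p = 7.14e-07), with no overlap at either ORF.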

How the data were processed

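Untreated and treated intensity of 6251 ORFs on 24 arrays were used as deposited. The authors scanned and quantified the arrays, and their deposited intensity values had been background and quantile normalised. How spots were merged into ORFs is not given in the sources used here. The deposited table of spots holds natural log ratios whose direction and centring the authors do not state, and it served only as an alternative for the count of calls. For each array log2(treated/untreated) was taken. The 6225 ORFs with values on all 8 arrays were fitted in limma 3.58.1 (R 4.3.3) with a mean per group and 1 shared dye term, eBayes moderation and Benjamini-Hochberg adjustment over all of them at 0.05. Counts describe lists, and no list was tested. The gene lists and pairs were compiled by hand, and the members and lists were chosen with earlier results of these data known. Named genes were the 10 highest and 10 lowest, the list members with the largest differences each way, a few not past the threshold, opposite movers, isozyme pairs and defining genes; 1 gene that the rule names is not reported here. Names matched 5737 ORFs, of which 5220 had a standard name. In a test on simulated data (6225 ORFs), 50 ORFs were changed at each size. Of each 50, 1 was called at 0.25, 24 at 0.5, 50 at 1 and 50 at 2 on the log2 scale. There were 5 false among 130 calls, and 0 calls with no change. The simulation changed few ORFs, whereas 62.2% were called on these arrays, and its normal errors and shared dye term followed the fitted model. Its rates therefore do not describe this comparison. Alternatives covered the dye term, arrays fitted, centring, loess, an offset of 50, dim ORFs, moderation, replicate numbers, thresholds and single arrays. The number of arrays, 4 per group from separate colonies, limits the precision.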

Additional observations from a re-analysis of the deposited data

Results flagged for a closer look

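The difference between the doses was itself different on the 2 dye orientations (interaction past adjusted p 0.05) for 7 of the genes named. Taken as the difference with treated RNA in Cy5 minus that in Cy3, it was -1.24 for TSA2, -1.29 for MXR1, -1.28 for OSI1, 2.32 for SHM2, 2.16 for ADE17, 1.44 for HIS4 and 2.23 for PHO89. TSA2 sat at the ceiling on all 4 acute arrays, so its value comes from the pretreated arrays. Over all ORFs the orientations differed for 61 (0.98%), of which 44 also differed between the doses. The purine and one-carbon list held 13 of its 33 genes, 12 of them with a positive value and 10 differing between the doses, and the list of histidine, leucine and aromatic synthesis held 6 of 41 (14.6%). Each orientation holds other replicates as well as the other dye, and neither was tested alone.

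Dixon's test set 1 array apart from the other 3 of its group in 10 of 378 tests on the genes named. It was run on ratios with the dye effect left in. Each group held 2 arrays of each orientation, so the usual chance rate of about 1 in 20 does not apply. The count therefore does not show that few arrays stood apart. On acute replicate 3, ZWF1 was at 2.43 with the others between 3.01 and 3.13, SOL4 at 1.93 (2.83 to 2.93), RPL7A at -0.8 (-2.84 to -2.58) and HXT5 at 0.0689 (0.713 to 0.749). On acute replicate 2, CYC1 was at 2.58 (2.2 to 2.25) and HTB2 at -2.0 (-3.21 to -3.01). On pretreated replicate 2, STR2 was at 0.377 (0.131 to 0.153), ARG3 at -0.379 (0.0818 to 0.137) and FRE1 at 0.878 (-0.526 to -0.344), and on pretreated replicate 1 HSC82 was at -0.425 (-0.632 to -0.603).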

How the results depend on the processing

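Without the dye term 1955 ORFs passed, 978 higher and 977 lower, all 1955 among the 3873 called with it. Asking for a difference of at least 1 on the log2 scale left 1142, 538 higher and 604 lower. Leaving out 1 array at a time gave 3405 to 4121 in all, 1667 to 2000 higher and 1736 to 2121 lower. The other totals were 4001 with a dye term per group, 4010 with the 12 wild type arrays, 3597 with all 24 arrays, 3842 after centring (1941 higher and 1901 lower), 3846 after loess, 3799 with 50 added, 3165 of 4668 without the dimmest ORFs, 2988 of 4373 over ORFs with values on all 24 arrays, 3898 with an intensity trend, 3009 at an adjusted p under 0.01 and 5651 of 10807 in the table of spots, whose direction is not stated. No ORF called under the alternatives set beside the main calls had the opposite sign. With balanced dyes the difference itself can move only with centring, loess, 50 added or an array left out. Under the other alternatives its direction was fixed in advance.

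Of 189 genes named with a difference, 183 passed the threshold, 159 of these kept direction and call under every alternative run, and 178 under every one but the fit without a dye term. RNR4, CDC60, ADE16, ROX1, MGA2 and SKN7 were among the 24 that lost their call without it. CTT1 lost its call also with 50 added to the intensities (adjusted p = 0.0562), and YPC1, MRPL39 and TKL2 with all 24 arrays (adjusted p = 0.0557, 0.178 and 0.163). TKL2 lost its call also with 50 added (adjusted p = 0.0725). RNR3, not past the threshold, changed sign to -0.0772 without pretreated replicate 2 and to -0.16 without acute replicate 4, within a range of -0.16 to 0.449 over the fits that left out 1 array. RNR2 became higher with a dye term per group, with 12 or 24 arrays and after loess (adjusted p = 0.0034, 0.0267, 0.0263 and 0.048), and RNR1 with 24 arrays (adjusted p = 0.0271). The causes were not tested.

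Replicate numbers are shared by the groups, but nothing ties same-numbered arrays to 1 culture, and after the dye term the correlation of their deviations was 0.30, 0.62, 0.091 and 0.55. With the replicate number as a block 3785 ORFs passed, 1838 higher and 1947 lower, and RNR1, RNR2 and HUG1 passed as well (adjusted p = 0.0278, 0.00113 and 0.0242), while TKL2 did not (adjusted p = 0.0542).

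What limits these values is the normalisation before deposit: 1 distribution per group fixes the most extreme ratios and hides any shift common to all ORFs, and the spread allowed differs between the groups. The dye part exceeds the treatment part in pretreated cells, so single pretreated arrays say little.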

Other observations

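Of 21 mitochondrially encoded ORFs, a list added after the data were seen, 10 were lower in acute than in pretreated cells and none was higher, with a median difference of -0.32 and a range of -1.61 to 0.39. Poly(A) selection limits what such transcripts report. Over the 5 of them left after the dimmest ORFs were removed the median was -1.34. Among 1005 ORFs with no standard name in the table used here, 233 were higher and 221 lower, against 1666 higher and 1753 lower of 5220 with one.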
